A study of Mus musculus with 2 samples.

Results

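The spots described here are mouse brain spots marked by Adam33, Penk and Reln, of which 96 form 1 patch and 44 lie scattered. The scattered spots are not taken to be cortex. They were chosen by a score, the mean over Adam33, Penk, Dio3, Wnt2b, Reln and Col23a1 of the natural log of 1 plus the count per 10000 in a spot, and the 140 highest of 2485 tissue spots were taken. Because these 6 genes chose the spots, their high levels are a description and no finding. The lowest score inside was 0.451 and the highest outside was 0.446, so the boundary falls within a continuous range. A further 1224 tissue spots had a score of 0.

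The assay was Visium CytAssist, which captures ligated probe pairs on a slide of barcoded spots and gives unique molecular identifiers (UMIs) per gene and spot. By the labels there was 1 brain section of a male G2-3 mouse, whose line carries A53T alpha-synuclein, and 1 of a male wild-type (WT) mouse, both at an age of 6 months and with no treatment named. Which promoter drives the transgene is not given in the sources used here. As deposited, the count matrices under both labels were the same file, byte for byte, with the same 2722 barcodes, so they were identical and are taken as 1 sample. No genotype is assigned to that library, G2-3 and WT were not compared, and no value below has a replicate. A spot can hold several cells of different types, and fewer cells of a type and less RNA per cell cannot be told apart. The library held 21695663 UMIs, and the chosen spots held 1880526 of them, with a median of 12220 per spot and a range of 1828 to 44352. The other tissue spots had a median of 6554.

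Parahippocampal cortex, which includes the entorhinal cortex, carries signals between the neocortex and the hippocampus. Its superficial layer holds stellate cells that secrete reelin, the product of Reln, a glycoprotein that binds the receptors Vldlr and Lrp8 and acts through the adaptor Dab1. Penk encodes the precursor of the enkephalins, which are opioid peptides, and Wnt2b a secreted Wnt ligand. Dio3 encodes the enzyme that inactivates thyroid hormone, Adam33 a membrane-bound metalloprotease and Col23a1 a transmembrane collagen.

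Upstream sequences are shown for Reln, Wnt2b and Dio3, which are genes of the score. In the profiles by depth below, Reln and Wnt2b were lower at the innermost step than at the edge, and Dio3 was higher. Because the score chose the spots on these genes, this is a description and no finding. Each line gives the 250 bases before the annotated start, 5′ to 3′ on the strand of the gene, from RefSeq on GRCm38.p6. The windows lie at chr5:22344706-22344955 for Reln and chr3:104961710-104961959 for Wnt2b, both on the minus strand, and at chr12:110278980-110279229 for Dio3 on the plus strand. All 3 lie outside annotated genes. Capitals mark GGGCGG, known as the GC box, and TATAAA, known as the TATA box, searched on both strands (CCGCCC and TTTATA on the other).
Reln: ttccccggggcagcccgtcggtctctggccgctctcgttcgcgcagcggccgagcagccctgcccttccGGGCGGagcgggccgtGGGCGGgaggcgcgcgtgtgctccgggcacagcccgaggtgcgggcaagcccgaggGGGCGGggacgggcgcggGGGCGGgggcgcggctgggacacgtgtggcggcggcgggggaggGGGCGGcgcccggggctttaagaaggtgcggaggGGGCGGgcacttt
Wnt2b: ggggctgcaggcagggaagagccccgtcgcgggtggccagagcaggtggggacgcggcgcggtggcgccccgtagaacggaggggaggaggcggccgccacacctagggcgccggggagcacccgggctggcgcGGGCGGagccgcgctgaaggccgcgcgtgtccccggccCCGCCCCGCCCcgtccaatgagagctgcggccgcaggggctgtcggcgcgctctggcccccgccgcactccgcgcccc
Dio3: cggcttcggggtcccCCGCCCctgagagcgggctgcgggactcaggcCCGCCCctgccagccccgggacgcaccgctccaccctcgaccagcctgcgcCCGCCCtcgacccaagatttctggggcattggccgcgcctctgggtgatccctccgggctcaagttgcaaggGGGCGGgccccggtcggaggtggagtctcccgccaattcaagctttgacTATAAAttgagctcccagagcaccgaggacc
GGGCGG occurred 6 times upstream of Reln, 3 times upstream of Wnt2b, where the pair on the other strand overlap, and 4 times upstream of Dio3. TATAAA occurred only upstream of Dio3 among these windows, with its first base 31 bases before the start. Over 32851 RefSeq windows of the same length, 32.7% held GGGCGG and 12.4% held TATAAA. These matches are letters in a window and say nothing on which factors bind there. The RefSeq promoter table held a window for 4 of the 6 score genes; that of Col23a1 overlapped an annotated gene and is not shown.

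Place on the array was not used by the score. Each inner place has 6 neighbours. Of 778 neighbour places of chosen spots that lay on tissue, 454 held a chosen spot (58.4%, with each adjacent pair counted from both sides), whereas 5.63% of all tissue spots were chosen. The largest unbroken group held 96 spots, called here the connected group. It ran along 1 edge of the tissue over array rows 8 to 28 and columns 30 to 60. The next largest group held 4 spots, and the 44 spots outside the connected group, called scattered, lay across the section, 28 of them with no chosen neighbour. The connected group was a shallow strip: its spots lay a median of 2 steps from the tissue edge and at most 4, against a median of 4 for the other tissue.

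**Figure D1:**
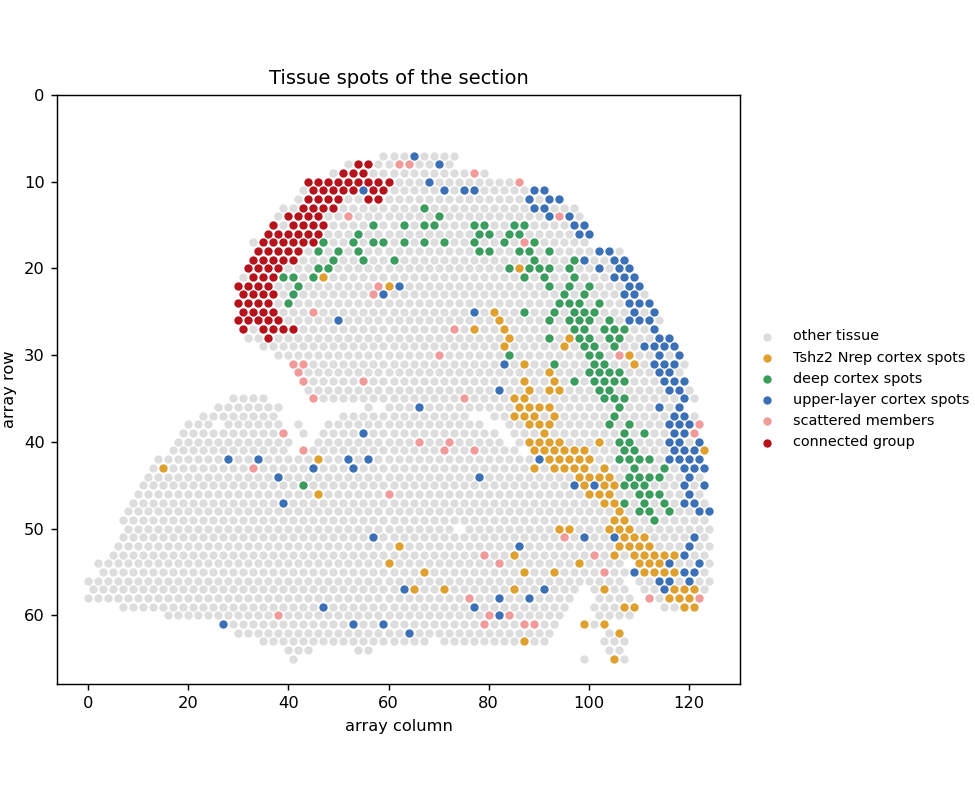
Array row against array column of the 2485 tissue spots, each point 1 spot. The 96 spots of the connected group form a strip along 1 edge, and the 44 scattered spots lie across the section. The comparison sets hold 140 spots each; 14 Tshz2/Nrep spots that also belong to another set (12 to the upper-layer and 2 to the deep set) are drawn in the colour of that set.

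The scattered spots differed from the strip in depth and in how many score genes they held. Median depth was 16506.5 UMIs in the connected group and 5882.5 in the scattered spots. At least 4 of the 6 score genes were counted in 67 of 96 spots of the connected group and in 5 of 44 scattered spots. After thinning each spot to 1000 UMIs, at least 1 score gene remained in 69 of 96 connected and 20 of 44 scattered spots, and in 233 of 2345 other tissue spots. Of the scattered spots, 18 held 2 score genes and 21 held 3. Values are given below for both subsets where they differ.

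Each score gene was also read in spots scored without it. The 6 genes were picked together with earlier results of these data known, so high values here are no finding. Chosen on the other 5 genes, the 140 spots held Adam33 at 132 counts per 1000000 UMIs (CPM, pooled over spots), against 8.04 in the other spots, a 16.4-fold difference. The same reading gave 9.16-fold for Penk, 9.30-fold for Dio3 and 9.53-fold for Wnt2b. It gave 5.66-fold for Col23a1 and 3.99-fold for Reln. The ratio was thus lowest for Reln of the 6, and the values describe the chosen spots only. Between 106 and 128 of the 140 spots were chosen again when 1 gene was left out.

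The levels in the full set were as follows. Adam33 was at 157 CPM in the connected group, 37.1 in the scattered spots and 7.22 in the other tissue. Penk was at 269, 165 and 19.04 CPM in the same order, and Reln at 271, 260 and 39.6. The 2 subsets were therefore closest in Reln and furthest apart in Adam33. Dio3 was at 129, 43.9 and 8.63 CPM, Wnt2b at 121, 67.5 and 7.69, and Col23a1 at 238, 125 and 24.2. Across single spots of the connected group, Adam33 ranged from 0 to 12.8 counts per 10000 with a median of 0.533, and Reln from 0 to 28.3 with a median of 2.16. Reln was counted in 88 of its 96 spots and Adam33 in 57.

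Levels of the label's own tissue were checked against marker lists, each against all other tissue spots unless another set is named. Of 8 measured genes of the entorhinal layer II list, Calb1, which encodes a calcium buffer, and Wfs1, an endoplasmic reticulum protein, were at least 2-fold higher (log2 ratio 1.13 for each). Lef1 was at least 2-fold lower (-1.22, from 6 UMIs), and the median of the list was -0.14, where the median of all genes was -0.10. Against 3 sets of cortical spots described below (upper-layer, deep and Tshz2/Nrep), the median of this list was 0.41, -0.13 and 0.68. All 5 measured genes of the retrosplenial list were lower, 4 of them at least 2-fold. The Cajal-Retzius list covers the reelin-secreting cells of the outermost layer, and 4 of its 8 genes were measured. All 4 were lower, with a median of -1.49. Ebf3 of that list was at 0 UMIs, so it was measured through the other tissue alone. In the scattered spots alone that median was 0.16. Against the 3 cortical sets only 2 genes of the list were measured, with medians of 0.41, 1.10 and -0.24 in the same order. Slc17a7, the vesicular glutamate transporter of cortical excitatory neurons, was counted in all 96 spots of the connected group. The lists do not settle which parahippocampal area the strip is, and the orientation of the section is not given in the sources used here, so the spots are called by their genes.

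Against all other tissue, 141 of 10985 measured genes (1.28%) were at least 2-fold higher in the chosen spots and 713 (6.49%) at least 2-fold lower; the scored genes are left out. Arhgap6, a GTPase-activating protein, had the highest lower bound, with 105 UMIs in 62 spots and a log2 ratio of 2.45 (95% interval 2.09 to 2.79). Intervals here and below are exact for a ratio of Poisson counts and cover counting error only. Other genes of the highest bounds were the phosphatase gene Ptpn14 (2.25), the anion exchanger gene Slc26a4 (2.22), the vesicle GTPase gene Rab3b (1.94), Igfn1 (1.97) and Cpne7 (1.85), which encodes a calcium-dependent membrane-binding copine. Rab3b and Cpne7 were the widest spread of these, counted in 114 and 113 of the 140 spots. Among the lowest genes were Tph2, the serotonin-synthesis enzyme of the raphe (-3.47), and Klk6, a protease of oligodendrocytes (-4.09). Rab37 had 0 UMIs in the chosen spots and 371 elsewhere, which is at least 12.2-fold lower with a floor of 3 counts over the group. Pvalb, the calcium buffer of fast-spiking interneurons, was at 28.2 CPM against 324 (log2 ratio -3.52, -3.94 to -3.14). With the connected group alone, the lower genes numbered 1143 in place of 713, and with the scattered spots alone the higher genes numbered 431 in place of 141.

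The scattered spots changed some of these readings. Igfn1 was at 236 CPM in the connected group and 40.5 in the scattered spots, below the 52.3 of the other tissue. Slc26a4 was at 55.5 CPM in the connected group, from 88 UMIs, and at 6.75 in the scattered spots, from 2. Pvalb was at 11.99 CPM in the connected group and 115 in the scattered spots. So the difference in Pvalb was deeper in the strip, and those in Igfn1 and Slc26a4 came from the strip alone.

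Because other tissue includes fibre tracts, brainstem and hippocampus, the spots were also set against 3 sets of 140 cortical spots, each the highest on a score of other genes. The upper-layer set was scored on Cux2, Rasgrf2, Lamp5, Rorb, Stard8 and Mdga1, the deep set on Vxn, Myl4, Fezf2, Rprm, Tle4 and Foxp2, and the third on Tshz2, Nrep, Cxcl14 and Coro6. Against the upper-layer set, 139 of 5931 genes (2.34%) stood 2-fold or more higher in the chosen spots, and 154 (2.6%) 2-fold or more lower. Against the deep set the numbers were 143 of 5789 (2.47%) and 130 (2.25%). Against the Tshz2/Nrep set they were 153 of 5673 (2.7%) and 170 (3%). Each comparison set was chosen by its own genes, so the differences describe these sets and not cortical layers at large, and all 4 comparisons share the chosen spots.

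A group of genes was higher than in all 3 cortical sets. Kcng1, a potassium channel subunit that modifies other channels, was at 165 CPM in the connected group, against 8.77, 46.8 and 25.8 CPM in the upper-layer, deep and Tshz2/Nrep sets. Its single-spot values ran from 0 to 6.92 counts per 10000 in the connected group, with a median of 1.02, and the median of each cortical set was 0. It was counted in 69 of 96 connected spots and in 12 of 140 upper-layer spots, and after thinning to 1000 UMIs in 14 and 1. The ranges overlap, since spots with no count occur in every set. Cpne7 was at 932 CPM in the connected group against 109, 279 and 147, with single-spot medians of 6.55 and 0.606, 1.38 and 0.764 counts per 10000. It was counted in 93 of 96 connected spots.

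Several of the others encode membrane or signalling proteins. Arhgap6 was at 62.5 CPM in the connected group against 6.75, 5.67 and 5 in the 3 sets, and Ntng1, a membrane-anchored netrin that guides axons, was at 90.3 against 15.5, 12.1 and 11.7. Hpcal1, a neuronal calcium sensor, was at 439 CPM against 90.4, 106 and 74.2. For these genes the 3 sets lay near each other and the strip stood above them all. Dlk1, a membrane protein of the Notch ligand family, was at 108 CPM against 7.42, 17.7 and 13.3, and Fibcd1, a chitin-binding membrane protein, at 107 against 10.1, 7.09 and 20.01. Dlk1 and Fibcd1 were not spread evenly: they were counted in 40 and 41 of the 96 connected spots, and their places are given below.

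For other genes the size or the direction of the difference depended on the set. Calb1 was at 550 CPM in the connected group, above the deep set (68.8) and the Tshz2/Nrep set (116), and 366 CPM in the upper-layer set was nearest to it. Igfn1 was at 236 CPM in the connected group and at 263 in the upper-layer set, against 27.0 and 35.8 in the other sets. Crym, which encodes a thyroid hormone-binding protein, was at 165 CPM against 14.8 in the upper-layer set and 90.8 in the deep set. So the strip had Calb1 and Igfn1 at a level nearest that of the upper-layer set. Crym was above both of these sets, at a level nearer to that of the deep set than to that of the upper-layer set. Ptpn14 was at 83.3 CPM against 27.7, 5.67 and 8.34 CPM, and Syt10, a vesicle protein of the synaptotagmin family, at 77.6 against 18.2, 33.3 and 7.5.

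Dkk3, Pvalb, Kcnh5 and Neurod6 were lower than in the cortical sets in which they were measured. Dkk3, a secreted protein of the Dickkopf family, was at 85.2 CPM in the connected group against 583, 995 and 1194 CPM. Its single-spot medians were 0.547 counts per 10000 in the connected group and 4.37, 9.60 and 10.2 in the 3 sets. The scattered spots were at 304 CPM, between the strip and the cortical sets. Pvalb, at 11.99 CPM in the connected group, was at 163, 174 and 270 CPM in the sets, and it was counted in 13 of 96 connected spots, against 93, 82 and 85 of 140. Kcnh5, a potassium channel subunit, was at 5.68 CPM in the connected group against 279 in the upper-layer and 206 in the Tshz2/Nrep set; in the deep set, at 39.7 CPM, it fell short of the minimum of 100 counts for a ratio. Neurod6, a transcription factor of cortical excitatory neurons, was at 28.4 CPM against 56.0, 133 and 166.

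**Figure D2:**
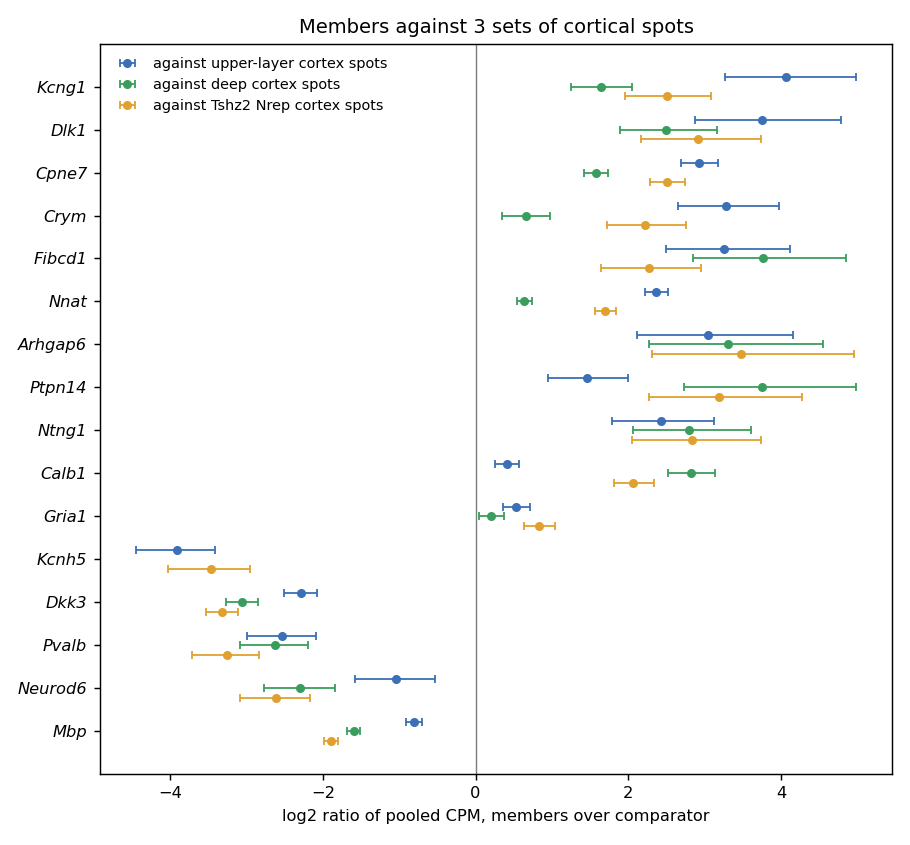
Log2 ratio of pooled CPM of 16 named genes, all 140 chosen spots over each of 3 sets of 140 cortical spots; bars are exact 95% intervals that cover counting error only. Kcng1 to Ntng1 lie right of 0 for all 3 sets, and Dkk3, Pvalb, Neurod6 and Mbp lie left of 0 for all 3; Kcnh5 has no ratio against the deep set.

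The pathways of the score genes were read through gene lists, with the score genes themselves left out. Over all measured genes, 1.28% were at least 2-fold higher than in other tissue and 6.49% at least 2-fold lower. A gene needed 100 counts over both sides, and other tissue held most of the UMIs. Genes near 0 in the chosen spots could therefore enter through the other tissue alone. Of 17 measured genes of the reelin pathway, 7 were higher and 10 lower than in other tissue, with a median log2 ratio of -0.10, equal to that of all genes. The receptor gene Lrp8 was at 0.49 (0.33 to 0.64), Vldlr at 0.23 (-0.10 to 0.55) and Dab1 at 0.27 (-0.02 to 0.54), so Lrp8 was the one of these with an interval above 0. The 1 gene at least 2-fold apart was Itga3, an integrin subunit, at -1.03. Against the deep set, Vldlr was at 1.40 (0.75 to 2.1).

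The opioid list gave 2 higher and 8 lower genes of 10, with a median of -0.14, and none of them was 2-fold apart. Oprd1, the delta receptor to which enkephalins bind, was at 22.7 CPM in the connected group against 45.6 in other tissue, and its log2 ratio for all chosen spots was -0.96 (-1.43 to -0.53). It was lower against each cortical set too, at -1.01, -0.86 and -1.32. The peptide-processing enzyme genes Pcsk2 and Cpe went opposite ways, at -0.43 (-0.58 to -0.28) and 0.40 (0.29 to 0.52). Oprm1, the mu receptor, was at -0.05 (-0.53 to 0.39), and Oprk1 fell short of the count minimum.

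In the Wnt list, 14 of 28 genes were higher and 14 lower, with a median of 0.01. Wnt4, a ligand like Wnt2b, was at least 2-fold higher (1.02, 0.59 to 1.43). At least 2-fold lower were 6 of the 28 genes, beside 6.49% of all genes. The 6 were Dkk3 (-1.84), the ligand genes Wnt10a (-1.53) and Wnt3 (-2.39), the transcription factor gene Lef1 (-1.22), the secreted inhibitor gene Sfrp5 (-2.17) and the potentiator gene Rspo1. Rspo1 had 0 UMIs in the chosen spots and Lef1 had 6. The receptor gene Fzd3 was at 0.73 (0.45 to 1.00). Wnt7b, another ligand, was higher than in each cortical set, at 1.34, 0.88 and 1.16.

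In the thyroid hormone list, 5 of 14 genes were higher and 9 lower, with a median of -0.04. Crym (1.29) and the retinoid X receptor gene Rxrg (1.57) were among 3 that were at least 2-fold higher, and Hr, a corepressor of thyroid hormone receptors, was at least 2-fold lower (-1.67). The activating enzyme gene Dio2 was at -0.27 (-0.62 to 0.07), and the receptor genes Thra and Thrb were at 0.12 and -0.03. None of 14 genes of the ADAM list, which holds other membrane proteases and the secreted ligands of some, was 2-fold apart; the median was -0.13. Of 10 other collagens, Col11a1, Col27a1 and Col5a1 were at least 2-fold lower, at -1.65, -2.50 and -1.45, and none was 2-fold higher.

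Of 27 postsynaptic density genes, 21 were higher and 6 lower than in other tissue, with a median of 0.31, where that of all genes was -0.10. This depended on the comparison set. The median was -0.11 against the upper-layer set, with 11 of 26 genes higher, and 0.04 against the deep set, with 16 of 26. It was 0.28 against the Tshz2/Nrep set, with 21 of 25 genes higher. The list was thus not raised over the upper-layer set. Its gene Lrrtm1, which encodes an adhesion protein, was higher than in other tissue (1.34) and in each cortical set (1.39, 1.89 and 1.49). Of 25 presynaptic genes, 15 were higher and 10 lower (median 0.12), and Syt2 (-2.63) and Vamp1 (-2.27), release proteins known from fast-firing neurons, were among 4 that were at least 2-fold lower. In the channel list 24 of 44 genes were higher and 20 lower than in other tissue (median 0.05). Of these, 1 was at least 2-fold higher and 6 at least 2-fold lower. The sodium channel subunit gene Scn4b, at -3.34, and Kcna1, at -1.03, were among the 6. Against the upper-layer, deep and Tshz2/Nrep sets the median of the list was -0.33, -0.14 and -0.11. In the list of GABAergic neurons, 9 of 18 genes were higher and 9 lower (median 0.05), with the interneuron peptide genes Sst at 0.77 and Npy at 0.50 and Pvalb the lowest.

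Myelin genes were low in the strip. All 12 measured oligodendrocyte genes were at least 2-fold lower than in other tissue, with a median of -2.34, or -3.75 with the connected group alone. Mbp, a main protein of myelin, was at 285 CPM in the connected group, 3340 in the scattered spots and 4023 in the other tissue. In the cortical sets it was at 1340, 2320 and 2836 CPM. So the strip held less of it than any of the 3 sets, and the scattered spots held more. Against other tissue, the microglial list had a median of -0.27 and the phagocytosis list one of -0.35, with 15 of 19 genes lower. The median of all genes was -0.10. Against the upper-layer, deep and Tshz2/Nrep sets the microglial medians were -0.09, 0.20 and -0.07. The phagocytosis medians were -0.13, -0.08 and -0.495 in the same order. With the scattered spots alone, the medians against other tissue were 0.38 (microglia) and -0.09 (phagocytosis).

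The connected group and the scattered spots were then set against each other. Both were chosen on the same score, so the 6 score genes are left out. Of 4065 genes, 214 (5.26%) were at least 2-fold higher in the connected group and 131 (3.22%) at least 2-fold lower; with TMM scaling the numbers were 347 and 83. Of 5 measured genes of glutamatergic neurons, 4 were higher in the connected group, 2 of them at least 2-fold, and 1 was lower, with a median of 0.71 where that of all genes was 0.09. Calb1 was at 550 CPM against 142, Crym at 165 against 27.0 and Slc17a7 at 5627 against 2235. Pcp4 and Pou3f3 of the cortical layer lists went the other way, at 252 against 507 CPM and 74.5 against 216. Itpka, a kinase of dendritic spines, was at 1.64 (1.39 to 1.90) on the log2 scale, and all 6 measured genes of the neuropeptide list were higher, with a median of 1.17. All 8 immediate early genes were higher too, 4 of them at least 2-fold.

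The scattered spots were higher in genes of glia, blood and meninges. All 5 measured myelin genes were at least 2-fold lower in the connected group, Mobp by most (-5.10, -5.45 to -4.76). The haemoglobin gene Hba-a2 was at 410 CPM in the connected group and 4704 in the scattered spots. Ptgds, a prostaglandin synthase abundant in the meninges, was at 1680 CPM against 13936, and 4127 of the 6789 UMIs in the chosen spots lay in the scattered ones. Summed over 5 genes of the meninges list, the level was 3185 CPM in the connected group and 16945 in the scattered spots. The sum takes in Nnat, described below as a gene of neurons, at 1305 CPM in the connected group. Of 12 astrocyte genes, 11 were lower in the connected group and 5 of these at least 2-fold. Their part in the low neuronal counts of the scattered spots was not tested.

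Inside the connected group the score genes differed by depth. By steps from the tissue edge (0 to 4, with 18, 24, 27, 19 and 8 spots), Reln was at 558, 454, 250, 173 and 54.9 CPM, and Wnt2b at 212, 214, 132, 53.5 and 12.2. Col23a1 rose the other way, from 70.8 CPM at the edge to 433 at step 4. Penk was highest at step 2, at 348 CPM, and Adam33 was at 221, 154, 216, 104 and 36.6 CPM, lowest at the innermost step. Dio3 was at 70.8 and 59.2 CPM in the outer steps and 159, 160 and 116 further in. Since a spot with little Reln is chosen only if another score gene is high, the choice could shape these profiles. With the tissue spots beside the group included, which gave 137 spots within 4 steps of the edge, Reln was at 407, 439, 260, 155 and 50.5 CPM from step 0 to step 4, and Wnt2b at 139, 194, 127, 42.0 and 8.41. Both were then highest at step 1 and lowest at step 4. Col23a1 was at 55.8, 141, 176, 286 and 261 CPM, highest at step 3. The added spots lie around spots chosen on these genes, so including them does not remove the effect of the choice. The depth profiles of the score genes describe the chosen strip and are no finding.

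**Figure D3:**
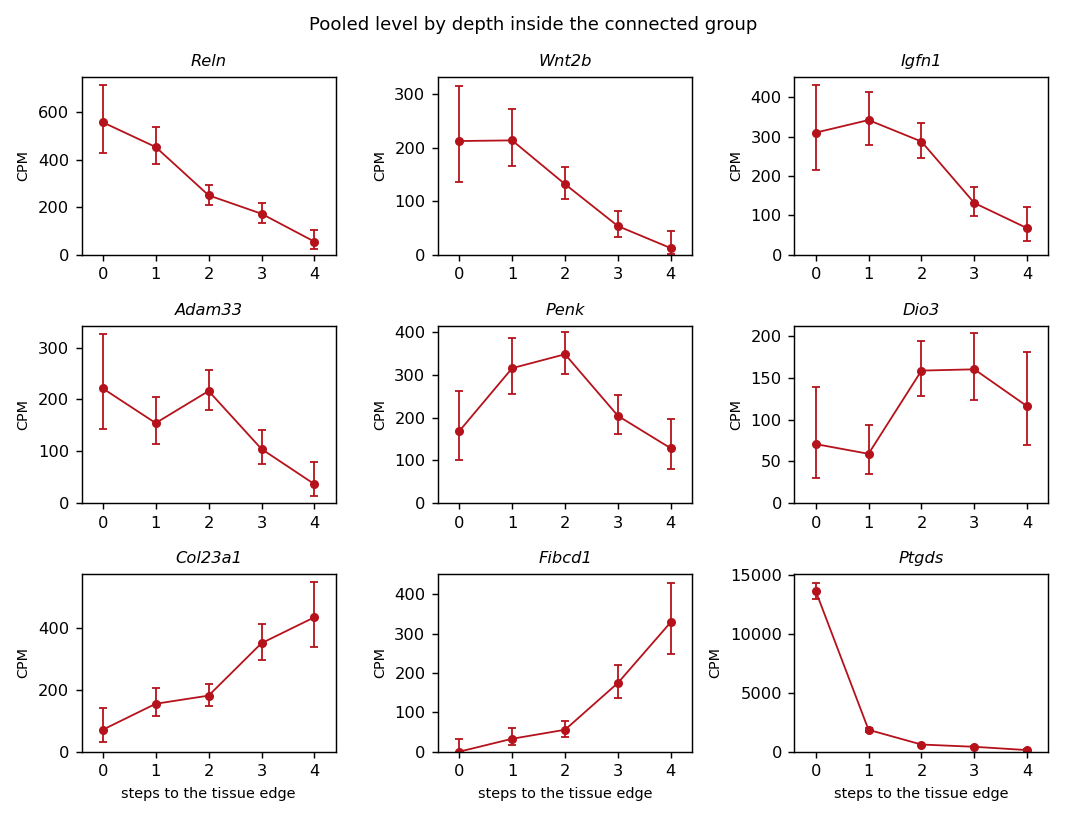
Pooled CPM in the connected group by steps to the tissue edge (0 is the edge; 18, 24, 27, 19 and 8 spots); bars are exact 95% intervals for counting error only. Reln, Wnt2b, Igfn1 and Ptgds are highest toward the edge, Col23a1 and Fibcd1 toward the interior, and Penk at step 2. Reln, Wnt2b, Adam33, Penk, Dio3 and Col23a1 helped choose the spots, and their panels are no finding.

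Over single spots of the connected group (96 spots, which share neighbours and depth), the levels of Reln and Col23a1 had a Pearson correlation of -0.56 and those of Reln and Dio3 one of -0.48. Dio3 with Col23a1 gave 0.52, Wnt2b with Reln 0.39 and Adam33 with Penk 0.38. The choice of spots on the sum of these genes shapes these values, and nothing is read from them.

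Other genes followed depth too. Between the inner spots (3 and 4 steps, 27 spots) and the outer spots (0 and 1, 42 spots), 34 of 2319 genes (1.47%) were at least 2-fold higher inside and 56 (2.41%) at least 2-fold lower. Fibcd1 was at 219 CPM inside and 24.0 outside, with 22 of 27 and 6 of 42 spots holding a count. The interneuron peptide genes Npy and Sst were higher inside, at log2 ratios of 2.45 (1.89 to 3.07) and 1.96 (1.76 to 2.16). Cck, another neuropeptide gene, was at 1.42, Pcp4, a calmodulin regulator, at 1.76, and Gabra5, a GABA-A receptor subunit, at 1.83. Within the upper, middle and lower bands of array rows, which are defined below, Sst was at 1.08, 2.85 and 0.86, so it was higher inside in each. Median depth was 9102 UMIs in the outer and 19773 in the inner spots.

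The outer spots held more of the astrocyte genes. Ptgds was at 5055 CPM outside and 335 inside, and Apod, a lipocalin, at 266 and 27.8. The meninges list had 2 measured genes here, Ptgds, which was lower inside, and Nnat, which was higher inside (0.36). All 11 measured astrocyte genes were lower inside, 8 of them at least 2-fold, with a median of -1.03 where that of all genes was 0.05. Gfap, the astrocyte filament gene, was at 182 CPM outside and 46.9 inside. Foxo1, a transcription factor, was at 264 and 52.1 CPM. The slopes of Reln and Wnt2b run the same way as those of Ptgds and Gfap; the part of these cells in them was not tested. Penk did not keep 1 direction across the bands, at 0.26, -1.08 and -2.19.

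A second pattern ran along the strip. It was divided by array row into an upper band (rows 8 to 14, 35 spots), a middle band (rows 15 to 21, 34 spots) and a lower band (rows 22 to 28, 27 spots). Between the lower and the upper band, 58 of 2161 genes (2.68%) were at least 2-fold higher in the lower and 70 (3.24%) at least 2-fold lower. Dlk1 had 4 UMIs in the upper band and 110 in the lower, at 7.49, 86.9 and 279 CPM from upper to lower. Nnat, a small membrane proteolipid of neurons, was at 498, 1010 and 2888 CPM, and Cpne7 at 451, 772 and 1849. These 3 genes rose from band to band and were higher in the lower band at each depth at which they were measured, which for Dlk1 leaves out the outer spots. For Nnat the log2 ratios were 2.16, 2.90 and 2.47 in the outer, middle and inner spots.

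Kcng1 was at 67.4, 188 and 258 CPM in the 3 bands, and Nos1, the neuronal nitric oxide synthase gene, at 114, 247 and 464. The activity-regulated gene Arc was 5.88-fold higher in the lower band and the transcription factor gene Fosl2 6.36-fold. Both belong to the immediate early list, of which 4 genes were measured: Junb was higher too (log2 ratio 0.49, -0.09 to 1.07), and Egr1 was at least 2-fold lower (-1.11). Of the score genes, Adam33 was at 31.8, 198 and 258 CPM and Dio3 at 33.7, 119 and 276. With neighbouring tissue spots included, Adam33 was at 23.7, 182 and 198 CPM and Dio3 at 35.5, 110 and 209, in the same order. Adam33 and Dio3 helped choose the spots, and the added neighbours lie around spots chosen on them. Their levels by band therefore describe the chosen strip and are no finding. Penk, also a score gene, was highest in the middle band, at 415 CPM against 129 and 215, and this too is a description.

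Of the score genes, Reln was higher in the upper band, at 433, 212 and 149 CPM from upper to lower. Reln helped choose the spots, so its levels by band describe the chosen strip and are no finding. Genes outside the score that were higher in the upper band included Igfn1, at 320, 261 and 81.1 CPM. Epha10, an ephrin receptor family gene, was at 270 CPM in the upper and 32.9 in the lower band, and Ncald, a neuronal calcium sensor, at 463 and 81.1. Mef2c, a transcription factor of excitatory neurons, was at 528 and 149. The median of 18 presynaptic genes was -0.36, with 16 of them lower in the lower band and 1 at least 2-fold, where that of all genes was -0.01. Sncb, a presynaptic protein gene, was at 1077, 830 and 631 CPM. Slc17a7 was at 7306, 5081 and 4263 CPM, and Ptgds at 665, 1301 and 3683. Of 5 measured genes of glutamatergic neurons, 2 were higher and 3 lower in the lower band, none of them 2-fold, with a median of -0.07.

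**Figure D4:**
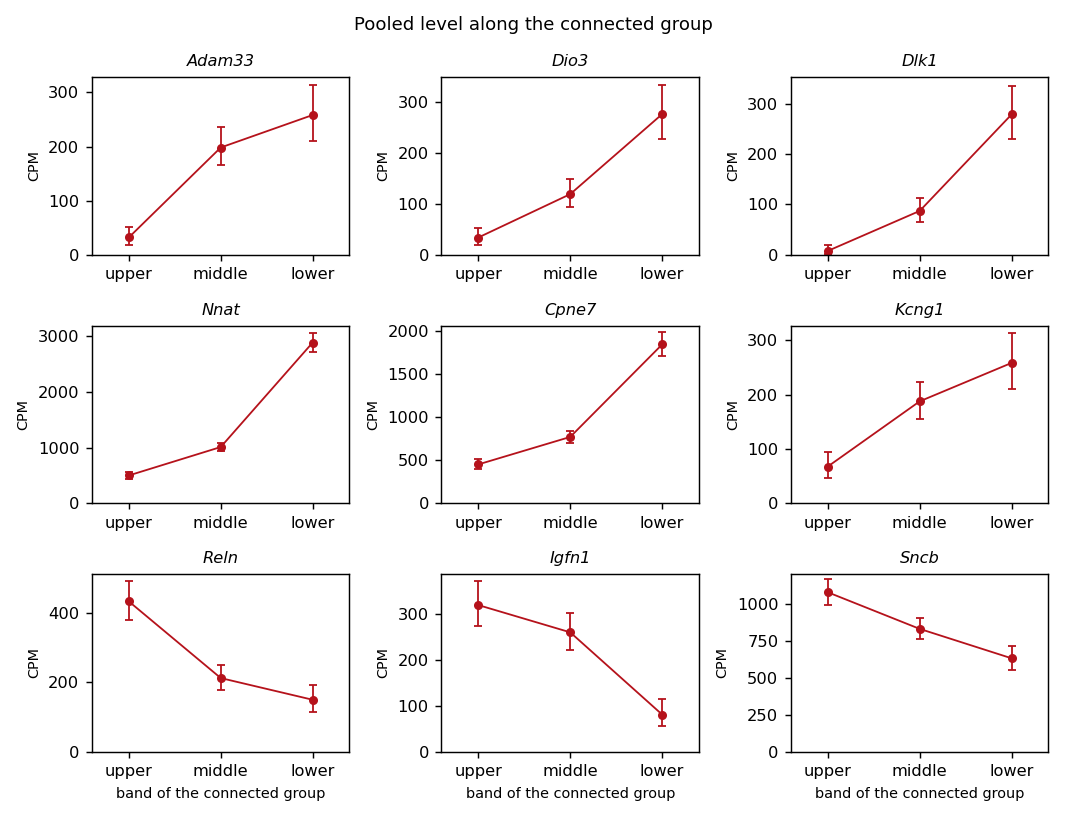
Pooled CPM in the upper (35 spots), middle (34) and lower (27) band of the connected group; bars are exact 95% intervals for counting error only. Adam33, Dio3, Dlk1, Nnat, Cpne7 and Kcng1 rise toward the lower band, and Reln, Igfn1 and Sncb fall. Adam33, Dio3 and Reln helped choose the spots, and their panels are no finding.

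Outward from the strip, the score genes fell at different rates. Each gene was followed from a connected group scored without it, though still on the other score genes. Adam33 was at 169 CPM in that group, 28.1 at the first step outside and 6.02 at the second. Penk was at 253, 97.5 and 31.9 CPM, and Wnt2b at 115, 48.3 and 6.13. Dio3 declined more slowly, at 119, 72.5 and 30.7 CPM. Reln and Col23a1 changed less over the first step, at 215, 193 and 102 CPM and at 196, 181 and 91.6. The starting groups differed too. Those scored without Reln and Col23a1 kept 76 and 82 spots of the connected group, against 83 each for Adam33 and Wnt2b and 89 for Penk. Spots lost from a group can fall into the steps outside it, so no width of a patch is read from these values.

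Genes outside the score differed in how they met this edge. From the connected group of the full score, Kcng1 was at 165 CPM, and at 146, 120 and 92.6 over the first 3 steps outside. It declined without a sharp step at the edge of the strip. Rab3b and Calb1 fell within 1 step, from 633 to 312 and from 550 to 295 CPM, and Calb1 was again at 721 CPM at step 7. Igfn1 fell from 236 to 80.2. Mbp rose steadily, from 285 CPM in the group to 401, 679 and 942 over the first 3 steps.

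**Figure D5:**
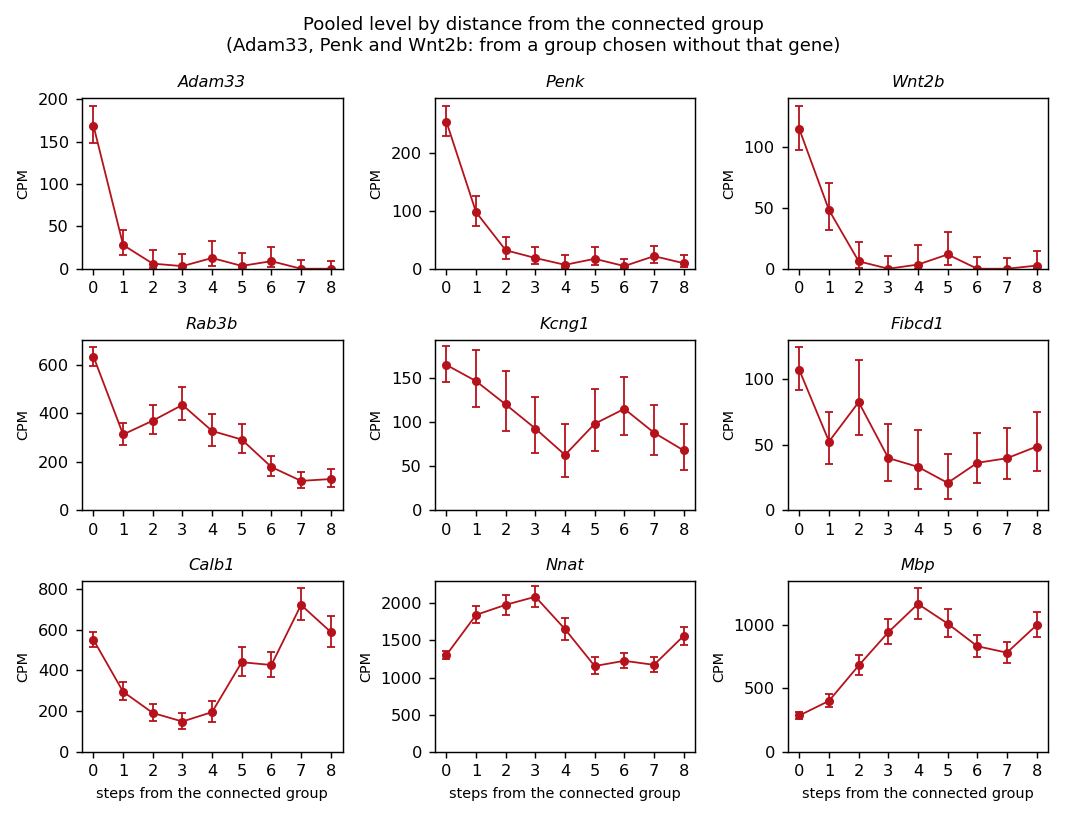
Pooled CPM by steps from the connected group (0 is the group); bars are exact 95% intervals for counting error only. Adam33, Penk and Wnt2b, each from a group chosen without that gene, drop to under 35 CPM by step 2, while Kcng1 declines more slowly and Nnat and Mbp rise over the first 3 steps; steps of 1 and more include some scattered chosen spots.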

How the data were processed

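Counts were deposited by the authors as whole UMI counts per gene and spot, with no normalization, with Space Ranger 3.1.1 named in the file headers and mm10 in the submitters' processing notes. The probe set and settings were not stated in the sources used here. Unlike the matrices, the position lists under the labels differed. In the list labelled G2-3, 751 of 2969 tissue spots had no counts, against 0 of 2487 in the list labelled WT. Spots marked as tissue in the position list labelled WT, with at least 500 UMIs, were kept. Counts were summed over spots and scaled to the total (CPM). With 1 library there was no test; log2 ratios of genes with at least 100 counts have exact conditional (Clopper-Pearson) 95% intervals (scipy 1.17.1, numpy 2.4.6, Python 3.11.15), and a count of 0 was set to 3. Sums and intervals were tested on simulated data. Counting error is the only error covered; barcodes with more UMIs are the more precise.

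Named genes were the 12 of highest lower bound and the 8 of lowest upper bound in each comparison, up to 4 of each of 31 gene lists by size, and others chosen after their values were seen. The bands, the depth classes, the comparison of connected with scattered spots and the scattered spots as an alternative were also chosen after seeing the data. The members and lists were chosen with earlier results of these data known. Alternatives were other numbers of members, UMI and count minimums, TMM scaling (edgeR 4.0.16, used for factors only), means over spots, subsets of members and scores without each gene. Some genes measured are not reported here.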

Additional observations from a re-analysis of the deposited data

Results flagged for a closer look

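A signal of the score genes also lay in spots outside the comparisons. The 237 spots that had counts but were not used held 205 UMIs of the 6 score genes, above the limit of 3 that a count of 0 allows. Of these spots, 187 had at least 500 UMIs, 19 of them scored at or above the lowest chosen spot, and 14 of the 237 lay beside the connected group. With all barcodes of at least 500 UMIs scored, 124 of the 140 spots were chosen again and the largest connected group held 88 spots. Whether RNA had spread from the tissue into these spots was not tested.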

How the results depend on the processing

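The choices that moved counts most were the count minimum and the subset of spots. At a minimum of 20 counts, the genes at least 2-fold higher and lower numbered 278 and 1185 against other tissue, 397 and 451 against the upper-layer set, 481 and 412 against the deep set, 409 and 628 against the Tshz2/Nrep set, and 641 and 836 between connected and scattered spots, with more genes tested. With the connected group alone, 1143 genes were lower than in other tissue. With the scattered spots alone, 431 were higher than in other tissue, 209 lower than in the deep set, and 46 higher and 96 lower than in the Tshz2/Nrep set. With CPM averaged over spots, 105 genes were lower than in the Tshz2/Nrep set. Between connected and scattered spots, TMM gave 347 higher and 83 lower genes, and the 100 highest scores gave 73 lower.

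The share of neighbours that were chosen was 62.5% for 100 spots and 52.5% for 180. It was 53.5%, 52.8%, 52.2%, 50.1% and 52.4% without Adam33, Penk, Dio3, Reln and Col23a1 in turn, and 53.6% with all barcodes.

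Some medians and genes changed sign. The meninges median against the Tshz2/Nrep set was -0.052 for the 100 highest scores and -0.40 for the connected group. Averaged over spots, the astrocyte median against other tissue was 0.071 and the phagocytosis median against the Tshz2/Nrep set 0.056, which was 0.019 without Dio3. At 20 counts, the neuropeptide median against the upper-layer set was 0.018 and the deep layer median between connected and scattered spots -0.0011. With the scattered spots alone, against other tissue, Slc26a4 was at -0.60, Igfn1 at -0.37, and the medians were 0.16 (Cajal-Retzius), 0.65 (astrocytes), 0.88 (blood), 0.48 (choroid plexus) and -0.13 (postsynaptic). Against the upper-layer set they were -0.76 (entorhinal) and 1.64 (oligodendrocytes), and against the deep set 0.34 (retrosplenial) and 0.62 (oligodendrocytes). Against the Tshz2/Nrep set they were -0.014 (entorhinal), 0.33 (astrocytes), 0.36 (oligodendrocytes), -0.76 (neuropeptides), -0.12 (postsynaptic) and 0.24 (phagocytosis). The cause was not tested. Over all alternatives, 1427 values of list medians and 1006 of named genes stayed within their spread, and 110 and 166 moved further. Depth limits single spots, as genes near 1 UMI per spot were seen in few of them. No paired analysis was possible because there was 1 library.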

Other observations

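Along the strip, 2 of the genes that differed most between the bands lie in 1 imprinted domain, in which genes are read from 1 parental copy. Dlk1, at chr12:109452485-109463336, ends 815894 bases before the start of Dio3, at chr12:110279230-110281097 (RefSeq, GRCm38.p6). From the upper to the lower band Dlk1 was at 7.49, 86.9 and 279 CPM and Dio3 at 33.7, 119 and 276. Nnat, an imprinted gene of chromosome 2, was at 498, 1010 and 2888 CPM. The 3 genes were picked after their values were seen, and Dio3 was part of the score.

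Outside the connected group, Nnat was higher than within it over the first 3 steps, at 1845, 1982 and 2090 CPM against 1305, and Sst was at 1818, 2292 and 2180 CPM against 1483.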
